A study of Homo sapiens with 12 samples.

Results

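SK-LMS-1 is an established human cell line that the labels call leiomyosarcoma, a malignant tumour of smooth muscle. Its gene expression at baseline was described from its 2 arrays without taurolidine, 1 of untreated cells and 1 of cells given TRAIL, out of 12 arrays in the series. They were set against the 4 arrays without taurolidine of the other 2 lines, A-204 (rhabdomyosarcoma in the labels) and VA-ES-BJ (epithelioid sarcoma in the labels), which again had 1 untreated and 1 TRAIL array apiece. TRAIL is a death receptor ligand of the tumour necrosis factor family and was given at 50 ng/ml for 6 h. The series compared TRAIL and taurolidine, an antimicrobial agent with antitumour activity, alone and together, and the 6 arrays with taurolidine were kept out of the main comparison. All 3 lines had the same serum-containing medium, which was replaced when the agents were added. The labels do not say that the 2 arrays of a line came from separate cultures. The spread used here is therefore the difference between the untreated and the TRAIL array of a line, and p-values measure that spread only. Each tumour label is represented by 1 line, so line and tumour type cannot be told apart.

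Smooth muscle cells contract through actin and myosin filaments that are governed by calcium, calmodulin and myosin light chain kinase. Their contractile genes are switched on by serum response factor (SRF), which binds a DNA element known as the CArG box together with coactivators of the myocardin family. Transgelin (TAGLN) and calponin 1 (CNN1) are actin-binding proteins of differentiated smooth muscle, and pathologists use smooth muscle actin, desmin and caldesmon to recognise leiomyosarcoma. TIE1 is a receptor tyrosine kinase known mainly from endothelial cells. Sarcoma cells can also carry traces of their embryonic lineage in homeobox, forkhead and T-box factors, and in the signalling pathways that pattern mesoderm.

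The arrays hold 54675 probe sets with MAS5 signals, in arbitrary units on a linear scale. The trimmed mean was 1000.1 on each of the 6 arrays, and array medians lay between 128.6 and 149.5. The median of the 6-array table, 138, marks below which signal a probe set is called dim here, because no detection calls were used. After dim probe sets were left out, 13879 genes were tested, each by 1 probe set. Differences are log2(signal + 11.6), SK-LMS-1 minus the other line, ± standard error from limma with 2 arrays per line. The constant, 11.6, is the 10th percentile of the table, and it makes the differences of dim genes smaller. Between the 2 arrays of a line, the median absolute difference over all tested genes was 0.16 for SK-LMS-1, 0.14 for A-204 and 0.19 for VA-ES-BJ. Only 1 of 12 tested housekeeping genes, SDHA, was called against both lines, and it was lower in SK-LMS-1, a call that was lost without either A-204 array. Wherever 2 signals of a line are given, the untreated array comes first, and of 2 differences the first is against A-204.

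SK-LMS-1 differed widely from both lines. Against A-204, 6510 genes passed an adjusted p of 0.05, or 46.9% of those tested, with 22.4% higher and 24.5% lower in SK-LMS-1. Against VA-ES-BJ, 6954 genes passed (50.1%), with 26.0% higher and 24.1% lower. Called in the same direction against both lines were 1819 higher genes (13.1%) and 1741 lower genes (12.5%). With a further demand of at least 4-fold in both comparisons, 306 genes were higher (2.20%) and 371 were lower (2.67%). In neither of these 2 sets did the SK-LMS-1 signals overlap those of the 4 other arrays, which the selection itself makes nearly certain. The shares above are the background for the counts of gene groups that follow. Of the 306 genes, 162 were dim on all 4 other arrays, and of the 371 genes, 263 were dim on both SK-LMS-1 arrays. Without the A-204 TRAIL array 4278 genes were called against A-204, and without the untreated SK-LMS-1 array 1155 genes were higher than both lines. The median over all tested genes was -0.04 against A-204 and 0.02 against VA-ES-BJ.

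**Figure D1:**
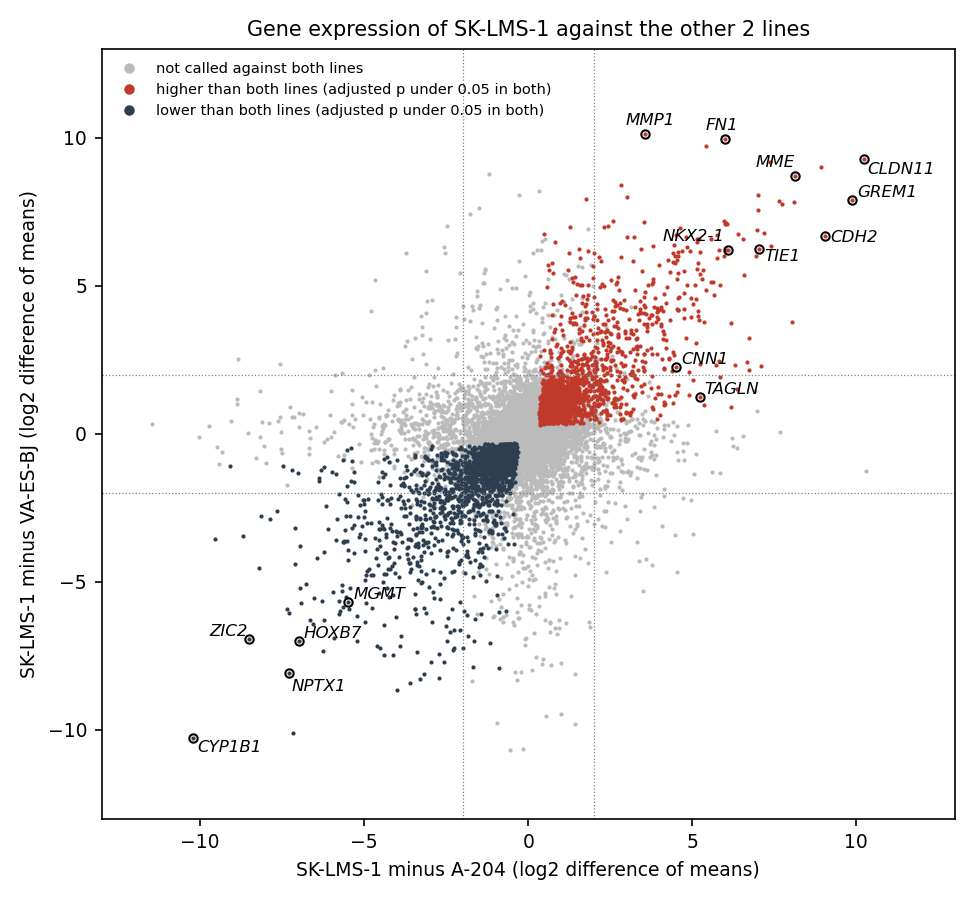
Each point is 1 of 13879 tested genes, with its log2 difference between SK-LMS-1 and A-204 on the x axis and between SK-LMS-1 and VA-ES-BJ on the y axis. Red genes were called higher than both lines and dark blue genes lower than both, dotted lines mark a 4-fold difference, and the circled genes are described in the text, from CYP1B1 at lower left to CLDN11 at upper right.

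Part of the smooth muscle programme was higher in SK-LMS-1 than in both other lines. Of 20 tested genes of the contractile list, 8 were higher than both lines (40.0%, beside 13.1% of all genes) and 0 were lower than both. These were TAGLN, CNN1, MYLK, SMTN, CSRP1, TPM2, MYL9 and CALD1. The medians over the 20 genes were 0.32 against A-204 and 0.48 against VA-ES-BJ. When any 1 array was left out, 5 to 7 of the 20 were called higher, with 5 without the untreated SK-LMS-1 array and 5 without the TRAIL one.

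TAGLN signals were 9763 and 10220.3 in SK-LMS-1, 271 and 239 in A-204, and 4245 and 4119.9 in VA-ES-BJ. Both SK-LMS-1 arrays stood above all others, far above A-204 and closer to VA-ES-BJ. Its differences were 5.23 ± 0.11 against A-204 (adjusted p = 5.7e-05) and 1.25 ± 0.11 against VA-ES-BJ (adjusted p = 0.0011). CNN1, which restrains actomyosin sliding, read 661 and 732 in SK-LMS-1, 17.7 and 21.0 in A-204, and 162 and 114 in VA-ES-BJ. Its A-204 signals were dim, and the differences were 4.51 ± 0.19 against A-204 (adjusted p = 0.00015) and 2.26 ± 0.19 against VA-ES-BJ (adjusted p = 0.00095). MYLK, the kinase that phosphorylates myosin light chain and so starts contraction, read 7960.5 and 8166 in SK-LMS-1, 1256 and 1022 in A-204, and 97.6 and 141 in VA-ES-BJ. It differed by 2.82 ± 0.20 against A-204 (adjusted p = 0.00064) and 5.97 ± 0.20 against VA-ES-BJ (adjusted p = 9.9e-05).

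Smoothelin (SMTN), a marker of contractile smooth muscle, read 11456 and 13071 in SK-LMS-1, 1653 and 1845 in A-204, and 6802 and 6101 in VA-ES-BJ, with differences of 2.80 and 0.92. CSRP1, a LIM protein of the smooth muscle cytoskeleton, read 12481 and 12830.4 against 2513 to 4349.5 on the 4 other arrays. Tropomyosin 2 (TPM2) was far above VA-ES-BJ but close to A-204, at 24002 and 23874 in SK-LMS-1, 17314 and 17051 in A-204, and 230.5 and 198 in VA-ES-BJ, and differed by 0.48 against A-204 (adjusted p = 0.025) and 6.73 against VA-ES-BJ (adjusted p = 3.6e-05). The TPM2 call was lost without either A-204 array and without either SK-LMS-1 array. Weaker calls were also those of the myosin light chain MYL9, with differences of 3.96 and 1.58, and of caldesmon (CALD1), with 1.07 and 0.51. Both lost the call against both lines when single arrays were left out, MYL9 in 4 of 6 cases and CALD1 in 5 of 6, and 1 of the 6 other CALD1 probe sets ran the other way.

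Several defining markers of mature smooth muscle were not raised in SK-LMS-1. Smooth muscle alpha-actin (ACTA2) read 1686 and 1335 in SK-LMS-1, 1667 and 1786 in A-204, and 4979.9 and 4737 in VA-ES-BJ, so that VA-ES-BJ stood above the other lines and SK-LMS-1 overlapped A-204. Its difference from VA-ES-BJ was -1.69 ± 0.15 (adjusted p = 0.0011). Smooth muscle gamma-actin (ACTG2) read 522 and 294 in SK-LMS-1, 484 and 577 in A-204, and 239.5 and 213 in VA-ES-BJ, and neither difference passed the test, with -0.42 against A-204 (adjusted p = 0.3) and 0.76 against VA-ES-BJ (adjusted p = 0.085). Desmin (DES), the intermediate filament of muscle, read 127 and 176 in SK-LMS-1 and between 109.9 and 201 on the other arrays. The smooth muscle myosin heavy chain MYH11 (137 and 119.7), leiomodin 1 (LMOD1, 40.1 and 38.6) and the coactivator myocardin (MYOCD, 79.0 and 129) were dim on both SK-LMS-1 arrays and were not tested. Tropomyosin 1 (TPM1) and synemin (SYNM) each lay between the other lines, TPM1 at 12624 and 11582 in SK-LMS-1, 3228 and 2786 in A-204, and 31254 and 43413 in VA-ES-BJ and SYNM at 696 and 721 in SK-LMS-1, 6781 and 6338 in A-204, and 500.2 and 541 in VA-ES-BJ.

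**Figure D2:**
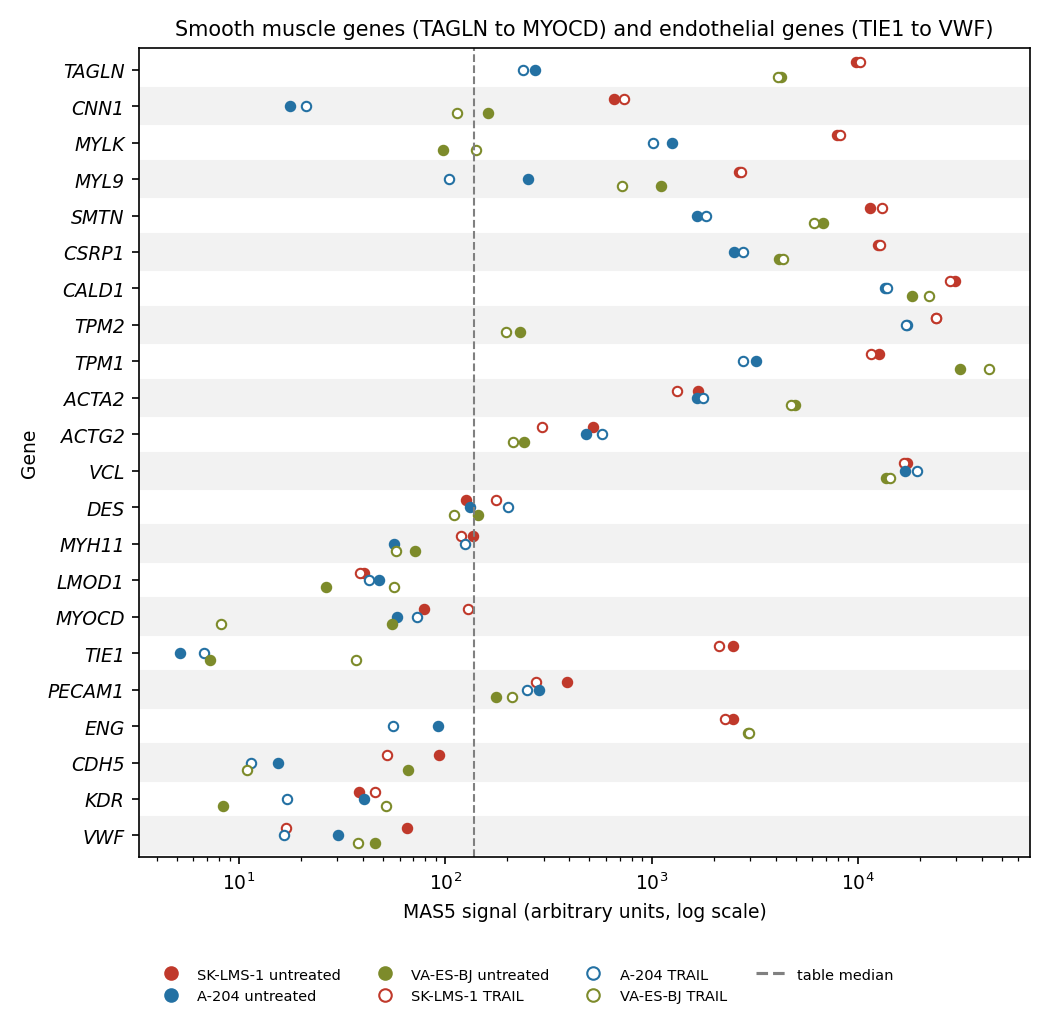
MAS5 signal on a log axis of smooth muscle genes (TAGLN to MYOCD) and endothelial genes (TIE1 to VWF), with 1 point per array, filled for untreated and open for TRAIL, red for SK-LMS-1, blue for A-204 and green for VA-ES-BJ. TAGLN, CNN1, MYLK and TIE1 are highest on both red points, whereas DES, MYH11, LMOD1 and MYOCD lie near or left of the dashed table median, 138, in every line.

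Regulators and targets of SRF, the factor that drives much of this programme, gave calls in both directions. Of 11 tested genes of this list, 3 were higher than both lines (27.3%, beside 13.1% of all genes) and 2 were lower (18.2%, beside 12.5%). Its medians were 0.32 against A-204 and 0.16 against VA-ES-BJ. SRF itself read 1205 and 1437 in SK-LMS-1, 827 and 672 in A-204, and 1051 and 1268 in VA-ES-BJ, and its difference from VA-ES-BJ did not pass the test (adjusted p = 0.43). FILIP1L, a filamin-interacting protein, was the member with the largest difference, at 2216 and 2342 in SK-LMS-1, 102 and 112 in A-204, and 411 and 342 in VA-ES-BJ, or 4.28 ± 0.13 against A-204 (adjusted p = 8.6e-05) and 2.57 ± 0.13 against VA-ES-BJ (adjusted p = 0.00027). The paxillin relative TGFB1I1, a focal adhesion coactivator, read 14533 and 15907 against 6024 to 9419 on the 4 other arrays. TPM4, MRTFB and ELK1, the other called members, lost their calls when single arrays were left out.

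The 250 bases upstream of the transcription start are printed for 3 genes of these lists to show where the CArG box lies in each. The box was searched as CC, 6 letters of A or T, and GG, a pattern that has the same form on both strands. The sequences are from RefSeq on build GRCh38.p14, and capitals mark the box. MYLK (chr3:123620549-123620798 on the minus strand) and FILIP1L (chr3:99876174-99876423 on the minus strand) were higher than both lines, whereas ACTG2 (chr2:73892758-73893007 on the plus strand), with 2 boxes, was not.
MYLK: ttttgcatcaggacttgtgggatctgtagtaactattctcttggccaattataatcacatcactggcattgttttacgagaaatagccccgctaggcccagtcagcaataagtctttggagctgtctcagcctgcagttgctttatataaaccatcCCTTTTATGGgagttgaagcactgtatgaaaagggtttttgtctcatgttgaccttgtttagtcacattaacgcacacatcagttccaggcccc
FILIP1L: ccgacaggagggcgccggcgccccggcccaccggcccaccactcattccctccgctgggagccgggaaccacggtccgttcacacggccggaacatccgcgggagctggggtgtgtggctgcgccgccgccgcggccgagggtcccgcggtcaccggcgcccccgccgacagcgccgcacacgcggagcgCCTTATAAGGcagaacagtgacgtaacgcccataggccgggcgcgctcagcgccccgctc
ACTG2: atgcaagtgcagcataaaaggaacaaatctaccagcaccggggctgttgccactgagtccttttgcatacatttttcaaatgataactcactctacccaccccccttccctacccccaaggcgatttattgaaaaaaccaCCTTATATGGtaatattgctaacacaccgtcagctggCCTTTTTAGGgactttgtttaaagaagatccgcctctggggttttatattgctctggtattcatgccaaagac
The box was present in 3 of 16 matched promoters of the tested smooth muscle genes (18.8%), in 1 of 6 of those called higher, and in 1.14% of the 11178 matched promoters of all tested genes. Among genes at least 4-fold higher in SK-LMS-1 it was present in 6 of 226 (2.65%), and among those at least 4-fold lower in 3 of 288 (1.04%). A match describes the letters only and is not a measured binding site.

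Markers of other cell types gave a mixed picture. TIE1 was the single endothelial gene higher than both lines, and it was among the 25 largest differences of all genes. It read 2475 and 2129 in SK-LMS-1, 5.16 and 6.75 in A-204, and 7.24 and 36.8 in VA-ES-BJ, with differences of 7.04 ± 0.45 against A-204 (adjusted p = 0.00045) and 6.25 ± 0.45 against VA-ES-BJ (adjusted p = 0.00065). The 4 other arrays were all dim, and with the constant raised to the table median the smaller of its 2 differences was still 3.93. Other endothelial genes did not follow. Of 10 tested members, 1 was higher (10.0%, beside 13.1% of all genes) and 3 were lower than both lines (30.0%, beside 12.5%). The lower ones were the endothelial nitric oxide synthase NOS3, the secreted factor EGFL7 and the ETS factor ERG. NOS3 was dim in SK-LMS-1 and bright elsewhere, at 12.1 and 26.0 against 876 to 1369 on the 4 other arrays. The endothelial cadherin CDH5 (93.2 and 52.2), the VEGF receptor KDR (38.1 and 45.7), the TIE1 partner TEK (67.8 and 60.9) and von Willebrand factor (VWF, 65.2 and 16.8) were dim on both SK-LMS-1 arrays. Of 3 other tested ERG probe sets, 1 was lower in both comparisons, and ERG was not called on the taurolidine arrays. Without the SK-LMS-1 TRAIL array, 5 members of the list were lower.

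Fibroblast and pericyte genes included 3 higher members of 12 tested, a larger share than the 13.1% of all genes. Lower members were 0, beside 12.5% of all genes. The medians over the 12 genes were -0.09 against A-204 and 1.5 against VA-ES-BJ, so the list as a whole was not raised over A-204. THY1, a surface glycoprotein of fibroblasts and mesenchymal stem cells, read 6210.3 and 7595 in SK-LMS-1, 209 and 219.5 in A-204, and 65.0 and 107 in VA-ES-BJ, and differed by 4.93 ± 0.24 against A-204 (adjusted p = 0.00022) and 6.17 ± 0.24 against VA-ES-BJ (adjusted p = 0.00013). The type I collagen chain COL1A1 read 34685 and 31399 against 701 to 6526 on the 4 other arrays, and the fibroblast activation protease FAP 605 and 566 against 7.76 to 206 on the 4 other arrays. Epithelial genes had 0 higher and 3 lower members of 11 tested (27.3% lower, beside 12.5% of all genes): KRT8, EPCAM and PKP3. Keratin 8 (KRT8) read 339 and 375 in SK-LMS-1, 2771 and 2618 in A-204, and 16153 and 17987 in VA-ES-BJ, lowest in SK-LMS-1 and highest in the line labelled epithelioid sarcoma. The epithelial adhesion molecule EPCAM was dim in SK-LMS-1, at 13.8 and 38.0 against 130.5 to 1920.5 on the 4 other arrays. Of 7 tested leukocyte genes, 1 was lower, CORO1A (14.3%, near the 12.5% of all genes), and 0 were higher. Skeletal muscle regulators MYOD1 and MYOG were dim on both SK-LMS-1 arrays and also on both A-204 arrays (MYOD1 28.6 and 69.3, MYOG 10.2 and 11.5), whereas TNNT1, a troponin of slow skeletal muscle, read 1787 and 1787 in SK-LMS-1, 5677 and 5882 in A-204, and 4133 and 4617 in VA-ES-BJ. Of 7 tested skeletal and cardiac muscle genes, TTN was higher (14.3%, near the 13.1% of all genes) and TNNT1 and NEB were lower (28.6%, beside 12.5%). Of 6 tested neural and melanocyte genes, NES was higher and NEFL lower (16.7% each, near those shares). Of these 5 calls, TNNT1 alone was kept when any 1 array was left out.

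The 25 genes with the largest difference from both lines included surface, secreted and lineage genes. On the SK-LMS-1 arrays their signals ranged from 1317 to 32399.5, and on the other arrays from 0.79 to 606. For 21 of the 25, all 4 other arrays were dim, so their fold differences depend on the added constant. The smaller of their 2 differences ranged from 5.96 to 9.27 here, and from 3.34 to 7.42 with the table median as the constant.

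Claudin 11 (CLDN11), a tight junction protein of myelin and Sertoli cells, led this group at 28934 and 31684 in SK-LMS-1, 21.8 and 7.67 in A-204, and 22.2 and 59.5 in VA-ES-BJ. Its differences were 10.22 ± 0.44 against A-204 (adjusted p = 0.00016) and 9.27 ± 0.44 against VA-ES-BJ (adjusted p = 0.00021). The other tested CLDN11 probe set was higher by less, 4.39 and 3.53. SERPINB7, an intracellular protease inhibitor of the serpin family, read 17967 and 15877 against 14.6 to 29.6 on the 4 other arrays. Neprilysin (MME), a cell surface peptidase also found on stromal cells, read 7019 and 6424 in SK-LMS-1, 14.0 and 10.5 in A-204, and 3.56 and 5.65 in VA-ES-BJ, without any overlap. It differed by 8.14 ± 0.14 against A-204 (adjusted p = 5.5e-05) and 8.70 ± 0.14 against VA-ES-BJ (adjusted p = 3.6e-05). The somatostatin receptor SSTR1 read 5551 and 5195 against 2.69 to 16.5 on the 4 other arrays. Its differences were 8.09 and 7.81, and those of its other tested probe set were smaller, 2.48 and 3.61. G0S2, an inhibitor of the main triglyceride lipase, read 30127 and 30618 against 94.5 to 174 on the 4 other arrays. TRPA1, a cation channel opened by irritants, read 4177 and 3682 against 9.52 to 48.6 on the 4 other arrays. Its differences were 7.19 and 6.78, but its other tested probe set was higher by only 1.57 and 1.36.

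Adhesion and guidance genes were part of the same group. N-cadherin (CDH2), which joins mesenchymal and neural cells, read 10137 and 9715 in SK-LMS-1, 4.33 and 10.2 in A-204, and 112 and 62.9 in VA-ES-BJ. The A-204 arrays were the dimmest, and the differences were 9.06 ± 0.29 against A-204 (adjusted p = 8.8e-05) and 6.69 ± 0.29 against VA-ES-BJ (adjusted p = 0.00017). SLIT2, a secreted ligand of ROBO receptors, read 4728 and 6519.8 against 2.73 to 43.5 on the 4 other arrays. Fibronectin (FN1), a matrix glycoprotein bound by integrins, read 32399.5 and 32191 in SK-LMS-1, 606 and 409 in A-204, and 15.4 and 28.2 in VA-ES-BJ, so that VA-ES-BJ was dim and A-204 was not. Its difference was larger against VA-ES-BJ, with 5.99 ± 0.27 against A-204 (adjusted p = 0.00018) and 9.94 ± 0.27 against VA-ES-BJ (adjusted p = 6.2e-05). The scavenger collectin COLEC12 read 15690.1 and 13427 against 10.3 to 124 on the 4 other arrays, and LY96, the partner of the endotoxin receptor, 5026 and 4907 against 7.02 to 55.0 on the 4 other arrays.

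**Figure D3:**
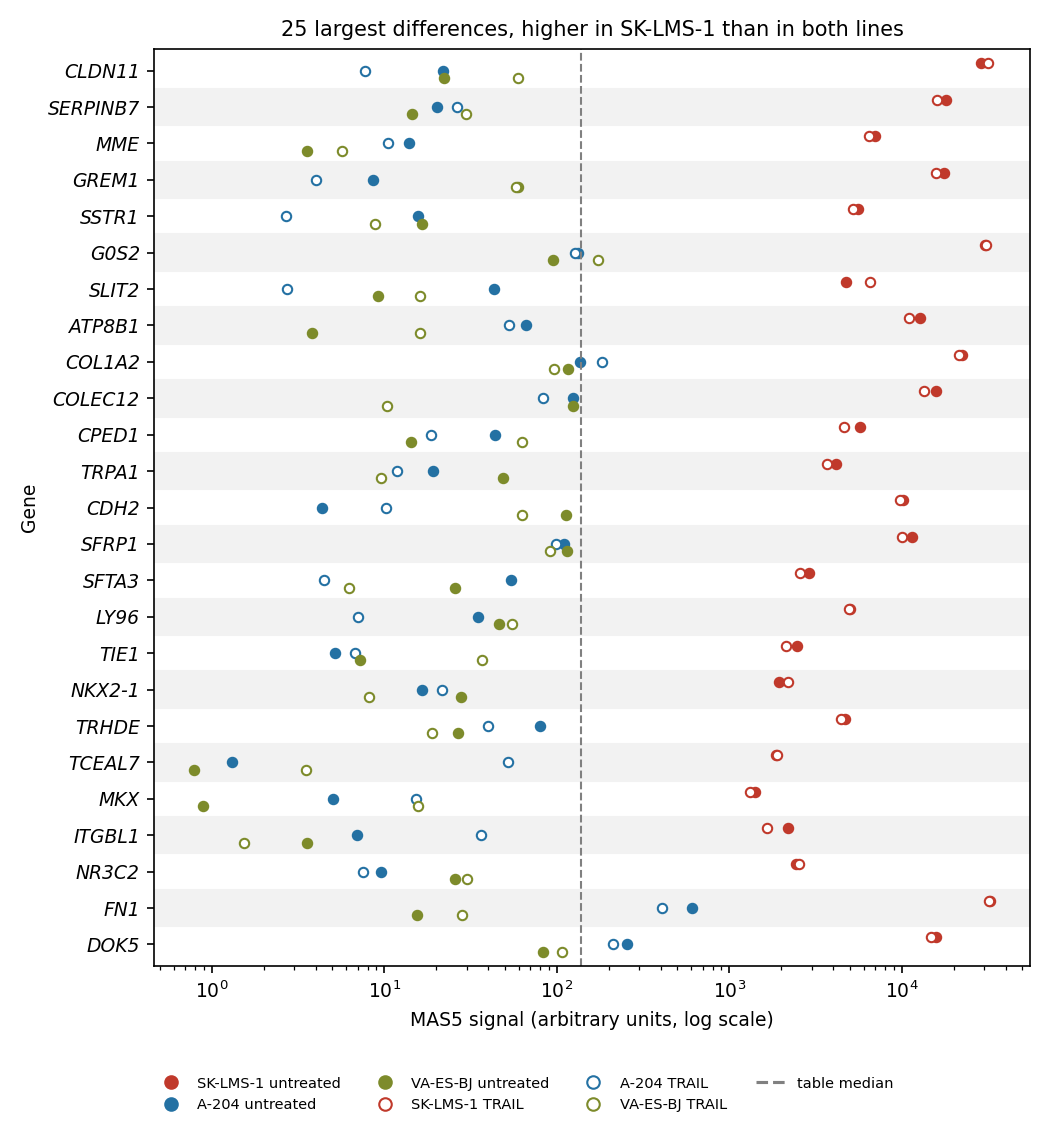
MAS5 signal on a log axis of the 25 genes with the largest difference higher than both lines, with 1 point per array, filled for untreated and open for TRAIL. The 2 red SK-LMS-1 points of each gene lie at 1317 or more, whereas nearly all points of A-204 (blue) and VA-ES-BJ (green) lie left of the dashed table median and those right of it reach 606.

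The mineralocorticoid receptor NR3C2, a nuclear receptor, was also among them. It read 2437 and 2528 in SK-LMS-1, 9.58 and 7.51 in A-204, and 25.5 and 29.9 in VA-ES-BJ, with differences of 6.95 ± 0.12 against A-204 (adjusted p = 5.5e-05) and 5.99 ± 0.12 against VA-ES-BJ (adjusted p = 4.4e-05). Its relative, the glucocorticoid receptor NR3C1, was bright in all lines, at 11773 and 11592 in SK-LMS-1, 3939.6 and 3879 in A-204, and 5242 and 5582 in VA-ES-BJ. It was higher in SK-LMS-1 by 1.58 and 1.11, although 1 of its 4 other probe sets ran the other way against VA-ES-BJ. These were the 2 called members of 4 tested steroid receptor genes (50.0% higher, beside 13.1% of all genes). The oestrogen receptor ESR1 read 180.4 and 130.4 and overlapped the other lines, and the progesterone receptor PGR was dim at 57.7 and 16.5.

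Developmental transcription factors were called in both directions. The list of GATA, FOX, SOX, LHX and related factors had 25 tested genes. Of these, 5 were higher than both lines (20.0%, beside 13.1% of all genes), namely FOXF1, ALX1, NR2F1, FOXD1 and FOXC2. Lower than both were 6 (24.0%, beside 12.5%), namely ZIC2, FOXL2, GATA4, LHX2, MEOX1 and SOX9. FOXF1, a forkhead factor needed in visceral smooth muscle and lung mesenchyme, read 6199 and 6111 in SK-LMS-1, 240.2 and 178 in A-204, and 61.3 and 40.2 in VA-ES-BJ. It was raised on both SK-LMS-1 arrays by 4.82 ± 0.23 against A-204 (adjusted p = 0.00019) and 6.65 ± 0.23 against VA-ES-BJ (adjusted p = 9.8e-05). ALX1, a homeobox factor of craniofacial mesenchyme, read 746 and 852 against 11.8 to 77.0 on the 4 other arrays. NKX2-1, known from lung and thyroid, read 1928 and 2184 in SK-LMS-1, 16.5 and 21.5 in A-204, and 27.9 and 8.18 in VA-ES-BJ. It differed by 6.08 ± 0.35 against A-204 (adjusted p = 0.00032) and 6.20 ± 0.35 against VA-ES-BJ (adjusted p = 0.00032). The other tested NKX2-1 probe set was higher by less, 2.25 and 3.68. Mohawk (MKX), a homeobox factor of tendon, read 1416 and 1317 against 0.884 to 15.7 on the 4 other arrays.

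Most of the lower factors that are named here were dim in SK-LMS-1. ZIC2, a zinc finger factor of the early nervous system, read 54.3 and 9.17 in SK-LMS-1, 13507 and 13396 in A-204, and 4690.3 and 4381 in VA-ES-BJ, with differences of -8.51 ± 0.54 against A-204 (adjusted p = 0.00044) and -6.94 ± 0.54 against VA-ES-BJ (adjusted p = 0.0008). FOXL2, a forkhead factor of the ovary, read 56.3 and 73.2 against 1362 to 3827 on the 4 other arrays. GATA4, a cardiac and gonadal factor, was lower by -2.91 ± 0.23 against A-204 (adjusted p = 0.00085) and -5.35 ± 0.23 against VA-ES-BJ (adjusted p = 0.00017), but 1 of its 3 other probe sets had the same direction in both comparisons. LHX2 read 17.1 and 8.06 in SK-LMS-1, 5358 and 5743 in A-204, and 156 and 168 in VA-ES-BJ, so that A-204 stood far above both other lines, and on the taurolidine arrays it was not called.

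Among T-box, paired-box and sine oculis factors, 4 of 16 tested members were higher, a larger share than the 13.1% of all genes. Lower members were 2, or 12.5%, the same as the share of all genes. TBX3, a repressor active in limb and heart, read 5559.6 and 4911 in SK-LMS-1, 187 and 217 in A-204, and 58.9 and 13.7 in VA-ES-BJ, and all 3 other TBX3 probe sets were higher against VA-ES-BJ as well. It differed by 4.62 ± 0.49 against A-204 (adjusted p = 0.002) and 6.95 ± 0.49 against VA-ES-BJ (adjusted p = 0.0006). EYA4, a coactivator of sine oculis factors, read 177 and 179 against 4.70 to 12.9 on the 4 other arrays. TBX18, known from the epicardium and from ureteric smooth muscle, read 502 and 402 in SK-LMS-1, 93.3 and 123 in A-204, and 12.8 and 17.5 in VA-ES-BJ. SIX2 and PAX2, called higher and lower, lost their calls when single arrays were left out, and another probe set of PITX1, called lower, had the opposite sign against VA-ES-BJ only.

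HOX genes, which record position along the body axis, were called in both directions. Of 10 tested HOXA and HOXB genes, 3 were lower than both lines (30.0%, beside 12.5% of all genes) and 1 was higher (10.0%, beside 13.1%). HOXB7 was the extreme case, at 19.4 and 34.5 in SK-LMS-1, 4959 and 4638 in A-204, and 4648 and 5010.5 in VA-ES-BJ, and differed by -6.99 ± 0.21 against A-204 (adjusted p = 8.4e-05) and -7.00 ± 0.21 against VA-ES-BJ (adjusted p = 7.4e-05). HOXB4 read 161 and 286 against 685 to 809 on the 4 other arrays, and HOXB2 684 and 582 against 1422 to 5263 on the 4 other arrays. HOXB3 was called higher by 1.44 and 0.48, a call that was lost without the untreated SK-LMS-1 array and without the TRAIL array of VA-ES-BJ. Of 14 tested HOXC and HOXD genes, 3 were lower (HOXC4, HOXC6, HOXC10) and 2 higher (HOXD11, HOXD9). These were 21.4% lower, beside 12.5% of all genes, and 14.3% higher, near the 13.1% of all genes. HOXC6 read 1116 and 1104 in SK-LMS-1, 5652 and 5309 in A-204, and 3829 and 4253 in VA-ES-BJ, whereas HOXD11 read 1002 and 1077 in SK-LMS-1, 151 and 151 in A-204, and 41.5 and 7.20 in VA-ES-BJ. Without either A-204 array neither HOXD gene was called.

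The list of mesenchymal transition genes had 5 higher (55.6%, beside 13.1% of all genes) and 0 lower members of 9 tested. These were the adhesion molecule CDH2, the matrix glycoprotein FN1, and TWIST1, TWIST2 and ZEB2, transcription factors that repress epithelial genes. TWIST1 read 3376 and 2989.6 in SK-LMS-1, 1102 and 1004 in A-204, and 51.4 and 31.8 in VA-ES-BJ, falling in the order SK-LMS-1, A-204 and VA-ES-BJ without overlap. ZEB2 read 1819.6 and 1689 in SK-LMS-1, 86.1 and 61.0 in A-204, and 496 and 312 in VA-ES-BJ, where A-204 was the dimmest, and its differences were 4.39 ± 0.27 against A-204 (adjusted p = 0.0004) and 2.12 ± 0.27 against VA-ES-BJ (adjusted p = 0.0031). The TWIST2 difference from A-204 was small, 0.76 ± 0.14 (adjusted p = 0.011), and its call was lost in 3 of 6 cases when an array was left out. The medians of the 9 genes were 1.58 against A-204 and 5.42 against VA-ES-BJ.

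Genes of the BMP and TGF-beta list were called in both directions. The secreted BMP antagonists GREM1, CHRDL1 and FST were higher in SK-LMS-1 than in both lines. The secreted follistatin relative FSTL3 was lower than in both, as were the inhibitors SMAD6 and BAMBI and the BMP targets ID2 and ID3. BMPs signal through SMAD proteins and induce ID genes, and gremlin, chordin-like and follistatin proteins bind the ligands outside the cell. Of 27 tested genes of the BMP and TGF-beta list, 6 were higher than both lines (22.2%, beside 13.1% of all genes) and 7 were lower (25.9%, beside 12.5%). Gremlin (GREM1) read 17583 and 15718 in SK-LMS-1, 8.62 and 4.03 in A-204, and 59.6 and 58.3 in VA-ES-BJ, with differences of 9.87 ± 0.16 against A-204 (adjusted p = 5.5e-05) and 7.88 ± 0.16 against VA-ES-BJ (adjusted p = 4.4e-05). CHRDL1, a chordin-like antagonist, read 4089.9 and 4509 against 13.8 to 111 on the 4 other arrays. Follistatin (FST) read 15418 and 15974 in SK-LMS-1, 3753 and 4126 in A-204, and 282 and 162 in VA-ES-BJ, highest in SK-LMS-1 and next in A-204. The TGF-beta receptor TGFBR2 read 9767 and 9372 in SK-LMS-1, 1034 and 1035 in A-204, and 999.5 and 826 in VA-ES-BJ, and LTBP1, which stores latent TGF-beta in the matrix, 13793 and 13336 against 228 to 662 on the 4 other arrays. The remaining higher member was the signal transducer SMAD3, and the antagonist noggin (NOG) was not called, at 608 and 787 in SK-LMS-1, 154 and 136 in A-204, and 553 and 438 in VA-ES-BJ.

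On the lower side were the ligands BMP6 and GDF15, the secreted FSTL3, the inhibitors SMAD6 and BAMBI, and the targets ID2 and ID3. ID2, which blocks helix-loop-helix factors, read 787 and 729.7 in SK-LMS-1, 11225 and 12151 in A-204, and 20866 and 23546 in VA-ES-BJ, and was lower by -3.93 ± 0.12 against A-204 (adjusted p = 8.6e-05) and -4.85 ± 0.12 against VA-ES-BJ (adjusted p = 5.6e-05). On the taurolidine arrays the smaller of its 2 differences was -0.43. BMP6 read 344 and 278 in SK-LMS-1, 10028 and 10190.4 in A-204, and 2252 and 1720.2 in VA-ES-BJ. The inhibitory SMAD6 read 172 and 80.3 against 542 to 2693 on the 4 other arrays.

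WNT genes split evenly, with 6 higher and 6 lower members of 19 tested (31.6% each, beside 13.1% and 12.5% of all genes). The higher ones were 1 ligand (WNT5A), the secreted antagonists SFRP1, DKK1, DKK3 and WIF1, and the nuclear factor LEF1. SFRP1, which binds WNT ligands, read 11454 and 10027 in SK-LMS-1, 109.8 and 98.3 in A-204, and 114 and 91.0 in VA-ES-BJ, with differences of 6.54 ± 0.15 against A-204 (adjusted p = 6e-05) and 6.56 ± 0.15 against VA-ES-BJ (adjusted p = 5.2e-05). WNT5A, a ligand of the non-canonical pathway, read 1519 and 1593 in SK-LMS-1, 106 and 94.4 in A-204, and 36.6 and 30.0 in VA-ES-BJ. DKK1, an inhibitor of the LRP coreceptors, read 30295 and 28888 in SK-LMS-1, 8531 and 9062 in A-204, and 152 and 78.1 in VA-ES-BJ. The lower members included coreceptors and receptors, among them LRP5, LRP6, FZD2 and the R-spondin receptor LGR4. LRP5 was dim in SK-LMS-1, at 17.4 and 23.8 against 460.2 to 706 on the 4 other arrays. LGR4 read 379.6 and 312 against 2049 to 4513 on the 4 other arrays, and the repressor TCF7L1 158 and 136 against 711 to 2197 on the 4 other arrays.

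The hedgehog and Notch list held the largest share of lower genes among the 28 lists. Hedgehog ligands act through PTCH1 and SMO on GLI factors, with PTCH1, HHIP and GLI1 as targets, and Notch receptors induce HES and HEY genes. Of 21 tested members, 11 were lower than both lines (52.4%, beside 12.5% of all genes) and 1 was higher. The medians were -1.13 against A-204 and -1.02 against VA-ES-BJ. The count of lower members was 6 to 9 when 1 array was left out, with 6 without the A-204 TRAIL array and 6 without the SK-LMS-1 TRAIL array. On the 6 taurolidine arrays it was 6, and the medians were -0.03 and -0.06.

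SMO, the transducer of the hedgehog signal, read 82.8 and 83.5 in SK-LMS-1, 1162 and 1206 in A-204, and 1884 and 1624 in VA-ES-BJ. Both SK-LMS-1 arrays were dim, and the differences were -3.66 ± 0.12 against A-204 (adjusted p = 8.7e-05) and -4.22 ± 0.12 against VA-ES-BJ (adjusted p = 6.3e-05). The target factor GLI1 read 90.9 and 32.6 in SK-LMS-1, 759 and 739 in A-204, and 1181 and 1182 in VA-ES-BJ, again dim in SK-LMS-1 only, with -3.50 ± 0.40 against A-204 (adjusted p = 0.0024) and -4.15 ± 0.40 against VA-ES-BJ (adjusted p = 0.0014). PTCH1 read 148 and 176 in SK-LMS-1, 6255 and 6456 in A-204, and 711 and 720.4 in VA-ES-BJ, highest in A-204, although 1 of its 2 other probe sets had the opposite sign against VA-ES-BJ. HHIP, the decoy receptor of hedgehog ligands, was the exception, at 662 and 791 in SK-LMS-1, 62.2 and 37.8 in A-204, and 47.3 and 49.2 in VA-ES-BJ, or 3.61 ± 0.22 against A-204 (adjusted p = 0.00041) and 3.62 ± 0.22 against VA-ES-BJ (adjusted p = 0.00043). Among Notch genes, NOTCH3, the receptor of vascular smooth muscle, read 54.9 and 12.5 in SK-LMS-1, 2458 and 2118 in A-204, and 344 and 238 in VA-ES-BJ, and its call was lost without the untreated VA-ES-BJ array. The target HES1 read 186 and 186 in SK-LMS-1, 699 and 769 in A-204, and 885 and 632 in VA-ES-BJ, with differences of -1.91 against A-204 (adjusted p = 0.0015) and -1.94 against VA-ES-BJ (adjusted p = 0.0014). JAG2, DLL3, HEYL and NRARP were the other lower Notch genes, whereas NOTCH2 was not lower, at 12832 and 12426 in SK-LMS-1, 7976 and 7362 in A-204, and 9747 and 10650.4 in VA-ES-BJ.

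**Figure D4:**
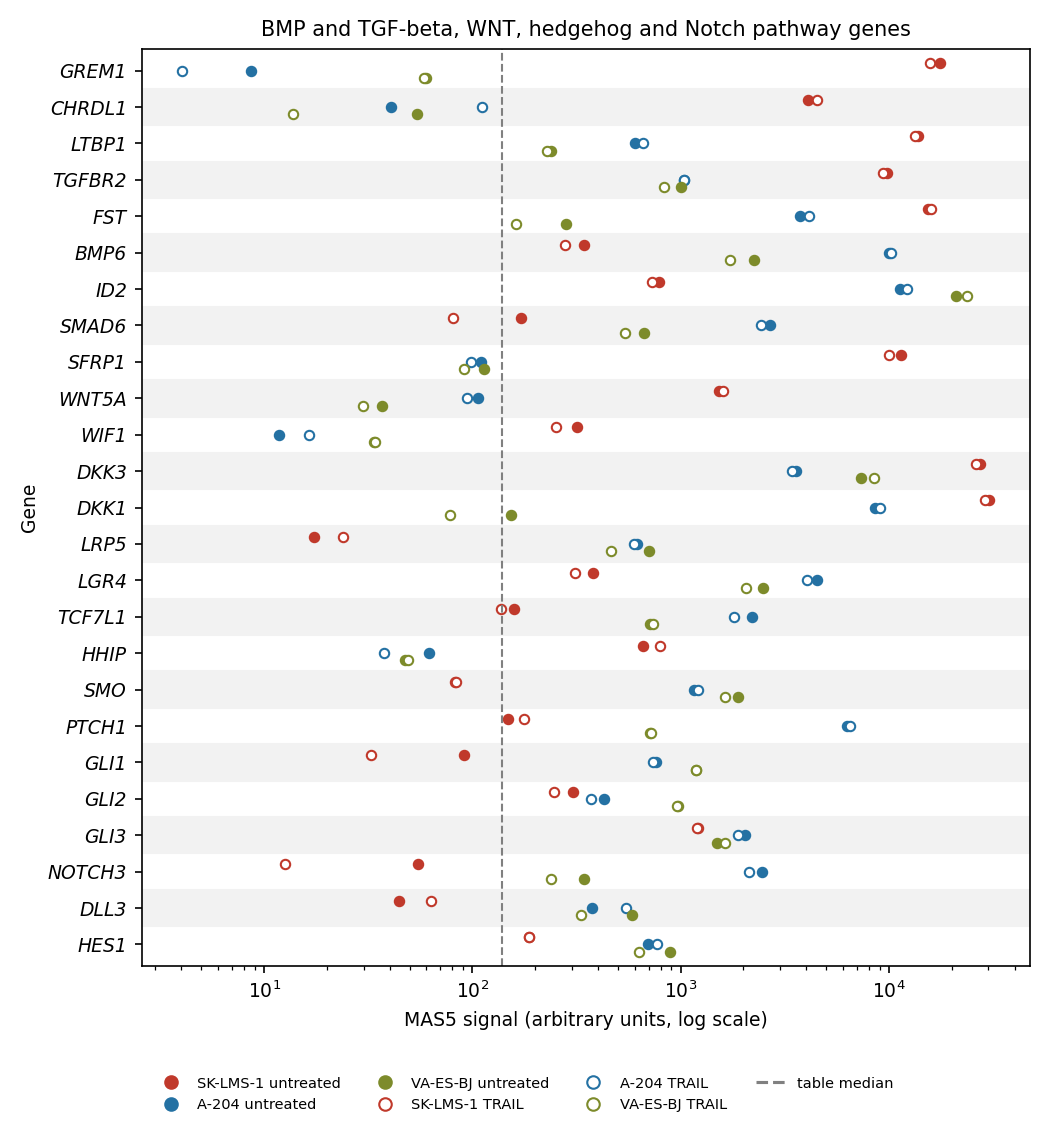
MAS5 signal on a log axis of called genes of the BMP and TGF-beta list (GREM1 to SMAD6), the WNT list (SFRP1 to TCF7L1) and the hedgehog and Notch list (HHIP to HES1), with 1 point per array, filled for untreated and open for TRAIL. The red SK-LMS-1 points lie right of all others for the antagonists GREM1, CHRDL1, SFRP1 and HHIP and left of all others for SMO, GLI1, NOTCH3 and LRP5.

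Matrix genes differed in both directions. Of 35 tested matrix genes, 8 were higher than both lines (COL1A1, COL1A2, COL6A1, COL6A2, COL12A1, LAMA4, FBN1, LOX) and 6 were lower (COL11A1, LAMA2, LAMC1, THBS1, LOXL2, HSPG2). These were 22.9% higher, beside 13.1% of all genes, and 17.1% lower, beside 12.5%. The type I collagen chain COL1A2 read 22452 and 21324 in SK-LMS-1, 136 and 184 in A-204, and 116 and 96.1 in VA-ES-BJ, with differences of 7.01 ± 0.18 against A-204 (adjusted p = 6.8e-05) and 7.54 ± 0.18 against VA-ES-BJ (adjusted p = 5.6e-05). The basement membrane laminin chain LAMA4 read 2237 and 2059 against 8.87 to 118 on the 4 other arrays. COL12A1, a collagen that decorates type I fibrils, read 9392 and 9312 in SK-LMS-1, 938 and 773 in A-204, and 128 and 97.3 in VA-ES-BJ. In the other direction, perlecan (HSPG2), the heparan sulfate proteoglycan of basement membranes, read 335 and 444 in SK-LMS-1, 7855 and 7117 in A-204, and 6789 and 7353 in VA-ES-BJ, or -4.24 ± 0.17 against A-204 (adjusted p = 0.00014) and -4.15 ± 0.17 against VA-ES-BJ (adjusted p = 0.00014). Thrombospondin 1 (THBS1), which activates TGF-beta, read 223 and 261 against 1596 to 9528 on the 4 other arrays. COL11A1, a cartilage collagen, was very bright in A-204 and lowest in SK-LMS-1, at 741 and 640.0 in SK-LMS-1, 49867 and 49319.9 in A-204, and 4061 and 3536 in VA-ES-BJ.

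Matrix proteases and their inhibitors had 7 higher members of 19 tested (36.8%, beside 13.1% of all genes) and 1 lower, MMP16 (5.26%, beside 12.5%). The interstitial collagenase MMP1 read 44419 and 44602 in SK-LMS-1, 3614 and 3878 in A-204, and 28.2 and 28.3 in VA-ES-BJ, dim in VA-ES-BJ alone, with differences of 3.57 ± 0.10 against A-204 (adjusted p = 7.2e-05) and 10.12 ± 0.10 against VA-ES-BJ (adjusted p = 3.6e-05). Stromelysin (MMP3), its neighbour in the genome, read 5239 and 6102 in SK-LMS-1, 123 and 93.1 in A-204, and 30.6 and 71.0 in VA-ES-BJ. Cathepsin K (CTSK), a collagen-degrading cysteine protease, read 4759.6 and 4327 against 234 to 502 on the 4 other arrays. ADAM12, PLAT, TIMP2 and MMP2 were the other higher members, of which MMP2 was not called on the taurolidine arrays.

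Integrins and cadherins had 7 higher members of 28 tested, a larger share than the 13.1% of all genes. Lower members were 3 (10.7%, below the 12.5% of all genes). ITGA4, an integrin chain that binds fibronectin and VCAM, read 3438 and 3569 in SK-LMS-1, 778 and 756 in A-204, and 28.1 and 67.6 in VA-ES-BJ, and ITGA2, a collagen receptor chain, 3779 and 4067 against 929 to 1396 on the 4 other arrays. ITGB8, an integrin chain that activates TGF-beta, read 29.4 and 103 against 1076 to 5019 on the 4 other arrays. The neural adhesion molecule L1CAM read 119 and 12.8 in SK-LMS-1, 757 and 601 in A-204, and 20058 and 18517 in VA-ES-BJ, bright in VA-ES-BJ, and its call was lost without either A-204 array. Without the untreated SK-LMS-1 array fewer members were called higher and more were called lower.

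Of 13 tested sarcoma tumour suppressors, 2 were higher (CDKN2B and RBL1; 15.4%, near the 13.1% of all genes) and 0 were lower, and both lost their call when single arrays were left out. SMARCB1, the chromatin remodelling subunit typically lost in rhabdoid tumours and epithelioid sarcoma, read 3530.1 and 3795 in SK-LMS-1, 1235 and 1090.2 in A-204, and 152 and 21.9 in VA-ES-BJ. Its difference passed the test against VA-ES-BJ, 5.63 (adjusted p = 0.0035), and not against A-204, 1.65 (adjusted p = 0.13). The cell cycle inhibitor CDKN2A read 6063 and 6404 in SK-LMS-1, 1941 and 1430.0 in A-204, and 38.5 and 281 in VA-ES-BJ, and RB1, often lost in leiomyosarcoma, read 6606 and 5068 in SK-LMS-1, 4309 and 3788 in A-204, and 7946 and 7675 in VA-ES-BJ. Neither was called against both lines.

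Of 28 tested oncogenes and growth factor receptors, 4 were higher than both lines (14.3%, near the 13.1% of all genes). These were KIT, AXL, EGFR and YAP1. Lower than both were 7, a larger share than the 12.5% of all genes, namely MDM2, MDM4, CDK6, CCNE1, ERBB2, FGFR3 and FGFR4. KIT, the stem cell factor receptor, read 594 and 578 in SK-LMS-1, 18.4 and 9.65 in A-204, and 12.1 and 14.2 in VA-ES-BJ. It was bright in SK-LMS-1 alone, by 4.56 ± 0.19 against A-204 (adjusted p = 0.00015) and 4.59 ± 0.19 against VA-ES-BJ (adjusted p = 0.00015), although on the taurolidine arrays it was not called, with a smaller difference of 2.70. AXL, the receptor for GAS6, read 29464 and 28796 in SK-LMS-1, 2583 and 3289 in A-204, and 4354 and 4658 in VA-ES-BJ, with 3.32 ± 0.15 against A-204 (adjusted p = 0.00018) and 2.69 ± 0.15 against VA-ES-BJ (adjusted p = 0.00032). EGFR read 9162 and 9576 in SK-LMS-1, 1724 and 1363 in A-204, and 4156 and 4171 in VA-ES-BJ, in which VA-ES-BJ took the middle place. Cyclin E1 (CCNE1) read 241 and 249 in SK-LMS-1, 1314 and 1565 in A-204, and 2242 and 2277 in VA-ES-BJ, or -2.49 ± 0.12 against A-204 (adjusted p = 0.00023) and -3.14 ± 0.12 against VA-ES-BJ (adjusted p = 0.00013), and FGFR4 was dim in SK-LMS-1, at 93.4 and 40.4 against 622 to 1228 on the 4 other arrays. The FGFR3 call was lost in 5 of 6 cases when an array was left out.

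MAGEC2, called higher, was the single called member of 6 tested cancer-testis genes (16.7%, near the 13.1% of all genes). It read 2639.7 and 2205 in SK-LMS-1, 114 and 92.8 in A-204, and 56.4 and 6.48 in VA-ES-BJ. The differences were 4.40 ± 0.63 against A-204 (adjusted p = 0.0049) and 6.11 ± 0.63 against VA-ES-BJ (adjusted p = 0.0017). Of 18 tested oncofetal and imprinted genes, 5 were higher (27.8%, beside 13.1% of all genes) and 2 lower (11.1%, near the 12.5% of all genes). The lower ones were necdin (NDN), a growth suppressor expressed from the paternal allele, at 169 and 258 against 5978 to 6801 on the 4 other arrays, and MEST, also paternally expressed, at 69.8 and 94.6 against 837 to 2216 on the 4 other arrays. The higher ones were PHLDA2, TPBG, PLAGL1, MEG3 and NNAT, and when 1 array was left out 2 to 5 of the list were called higher, with the lowest count given by the SK-LMS-1 untreated array.

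Growth factors and immune genes followed no common direction. Of 25 tested growth factors, 4 were higher (FGF5, FGF1, ANGPT1, BDNF) and 6 lower (TGFA, TGFB2, HGF, EREG, PDGFA, PDGFB). These were 16.0% higher, near the 13.1% of all genes, and 24.0% lower, beside 12.5%. FGF5 read 5194 and 5887 in SK-LMS-1, 11.5 and 7.56 in A-204, and 366 and 423 in VA-ES-BJ, highest in SK-LMS-1, and differed by 8.04 ± 0.15 against A-204 (adjusted p = 5.7e-05) and 3.77 ± 0.15 against VA-ES-BJ (adjusted p = 0.00015). Hepatocyte growth factor (HGF), the ligand of MET, read 1202 and 1018 in SK-LMS-1, 11456 and 11651 in A-204, and 33447 and 35909.9 in VA-ES-BJ, or -3.37 ± 0.13 against A-204 (adjusted p = 0.00012) and -4.95 ± 0.13 against VA-ES-BJ (adjusted p = 5.6e-05). Epiregulin (EREG), a ligand of EGFR, was bright in VA-ES-BJ and dim in SK-LMS-1, at 97.4 and 71.6 in SK-LMS-1, 946 and 924 in A-204, and 26535 and 33304 in VA-ES-BJ, although its other probe set did not follow in both comparisons. The TGFA call was lost without either A-204 array. Of 18 tested antigen presentation genes, 5 were lower (27.8%, beside 12.5% of all genes) and 1 was higher (5.56%, beside 13.1%). The peptide transporter TAP1 read 1562 and 1647 in SK-LMS-1, 4154 and 4527 in A-204, and 5672 and 6380.1 in VA-ES-BJ, with differences of -1.43 against A-204 (adjusted p = 0.00091) and -1.90 against VA-ES-BJ (adjusted p = 0.00043), and the immunoproteasome subunit PSMB9 1997 and 1997 against 4615 to 11028 on the 4 other arrays. The higher one was CD274, the PD-1 ligand, at 2208 and 2355 in SK-LMS-1, 180.5 and 135 in A-204, and 1254 and 1190.5 in VA-ES-BJ, or 3.77 ± 0.16 against A-204 (adjusted p = 0.00016) and 0.89 ± 0.16 against VA-ES-BJ (adjusted p = 0.0092). Of 20 tested cytokines, IL11 and TSLP were higher (10.0%, below the 13.1% of all genes) and LIF was lower (5.0%, below the 12.5%).

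The 25 genes with the largest difference lower than both lines were mostly dim in SK-LMS-1. Their SK-LMS-1 signals ranged from 2.48 to 209, and those on the other arrays from 695 to 31732. For 21 of the 25, both SK-LMS-1 arrays were dim. The smaller of the 2 differences ranged from -10.23 to -5.22, and from -7.23 to -2.72 with the table median as the constant.

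CYP1B1, a cytochrome P450 of steroid and xenobiotic metabolism, had the largest difference in either direction, at 9.35 and 3.84 in SK-LMS-1, 22525 and 20680.5 in A-204, and 21712 and 22526 in VA-ES-BJ. Its differences were -10.23 ± 0.17 against A-204 (adjusted p = 5.5e-05) and -10.26 ± 0.17 against VA-ES-BJ (adjusted p = 3.6e-05), and its 3 other tested probe sets were lower as well. Neuronal pentraxin 1 (NPTX1) read 142 and 59.1 in SK-LMS-1, 15978 and 16859 in A-204, and 24762 and 31732 in VA-ES-BJ, or -7.30 ± 0.39 against A-204 (adjusted p = 0.00027) and -8.07 ± 0.39 against VA-ES-BJ (adjusted p = 0.00022). TUBB2B, a beta-tubulin of neurons, read 151 and 208 against 15341 to 18019.5 on the 4 other arrays. The polysialyltransferase ST8SIA4 read 34.9 and 61.3 against 4282 to 4569.7 on the 4 other arrays, and the sulfatase SULF2, which edits heparan sulfate, 57.4 and 40.9 against 2301 to 3272 on the 4 other arrays. PAPPA, a protease that frees insulin-like growth factors, read 149 and 155 against 8749 to 12760.1 on the 4 other arrays, and its 7 other tested probe sets were lower too.

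Transport, junction and repair genes were in the same group. GJB2, a connexin of gap junctions, read 3.73 and 4.54 in SK-LMS-1, 1865 and 1993 in A-204, and 916 and 733 in VA-ES-BJ, with differences of -6.94 ± 0.14 against A-204 (adjusted p = 5.7e-05) and -5.72 ± 0.14 against VA-ES-BJ (adjusted p = 5.6e-05). ABCC2, an export pump for drug conjugates, read 17.7 and 7.76 against 1332 to 4001 on the 4 other arrays. The cold-activated channel TRPM8 read 8.13 and 23.6 against 1282 to 1538 on the 4 other arrays, and the fatty acid elongase ELOVL7 19.9 and 16.5 against 2238 to 3134 on the 4 other arrays. MGMT, which removes alkyl groups from guanine in DNA, read 17.4 and 15.6 in SK-LMS-1, 1150.3 and 1351 in A-204, and 1482 and 1360.2 in VA-ES-BJ, dim on both SK-LMS-1 arrays. It differed by -5.48 ± 0.13 against A-204 (adjusted p = 6e-05) and -5.67 ± 0.13 against VA-ES-BJ (adjusted p = 5.2e-05), and on the taurolidine arrays the smaller difference was -6.60.

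**Figure D5:**
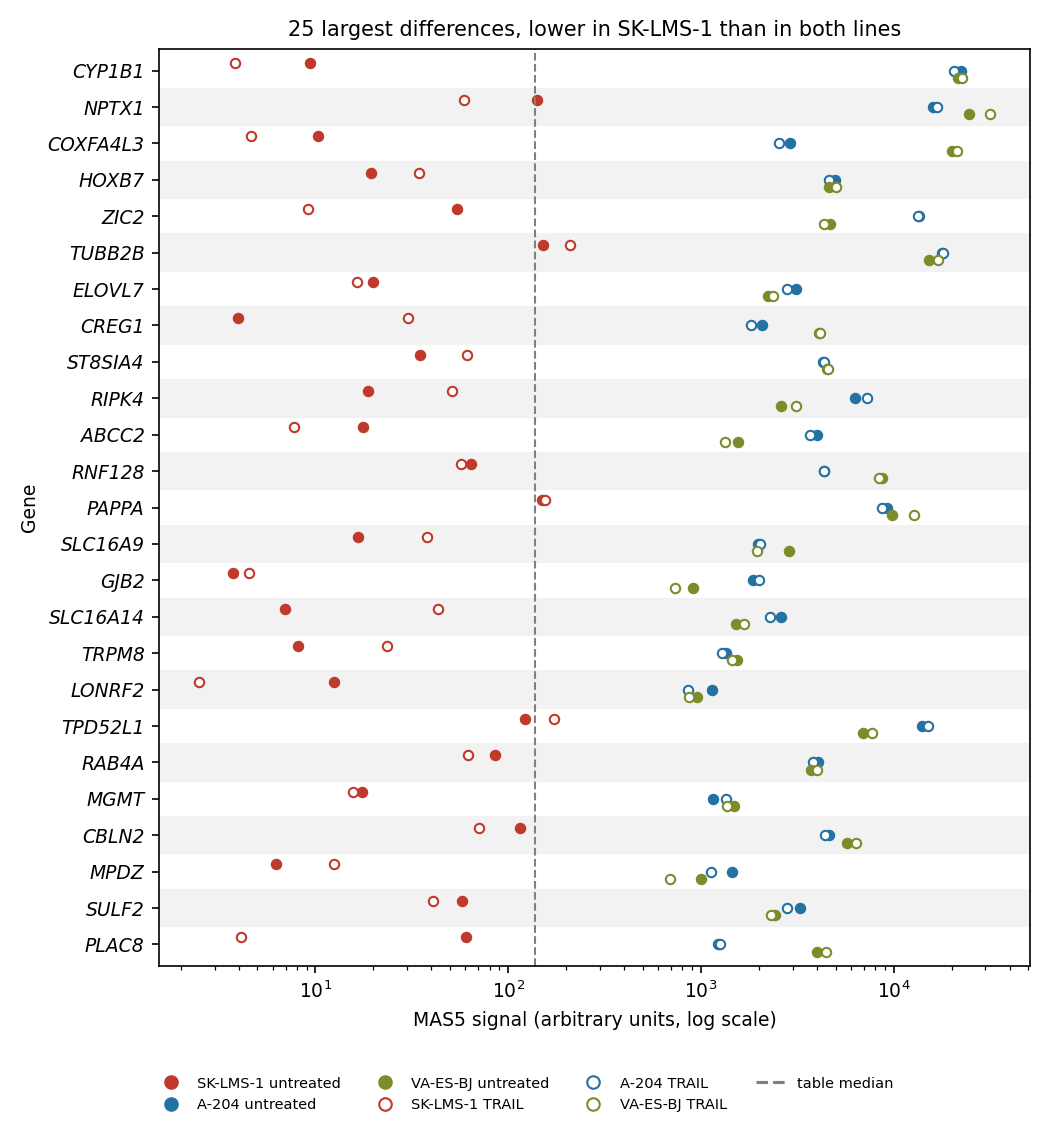
MAS5 signal on a log axis of the 25 genes with the largest difference lower than both lines, with 1 point per array, filled for untreated and open for TRAIL. The red SK-LMS-1 points end at 209, mostly left of the dashed table median, and the blue A-204 and green VA-ES-BJ points start at 695.

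The sequence around the start was also compared between the sets. In a 300-base window, from 250 bases before to 50 after the start, 60.2% of the 226 matched genes at least 4-fold higher in SK-LMS-1 held 15 or more CpG dinucleotides (CG). The share was 72.2% of the 288 matched genes at least 4-fold lower, and 78.5% of all matched tested genes. Medians per window were 20.5, 27 and 26 in the same order. The 250 upstream bases of a CpG-poor higher gene, TIE1 (chr1:43300732-43300981 on the plus strand), and of the CpG-rich lower gene MGMT (chr10:129466991-129467240 on the plus strand) are printed as an example of a CpG-poor and a CpG-rich start, with CpG dinucleotides in capitals.
TIE1: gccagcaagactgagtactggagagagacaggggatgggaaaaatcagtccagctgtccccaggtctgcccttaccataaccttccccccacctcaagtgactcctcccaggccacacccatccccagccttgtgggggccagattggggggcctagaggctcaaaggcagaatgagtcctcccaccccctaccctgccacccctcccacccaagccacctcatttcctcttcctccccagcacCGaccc
MGMT: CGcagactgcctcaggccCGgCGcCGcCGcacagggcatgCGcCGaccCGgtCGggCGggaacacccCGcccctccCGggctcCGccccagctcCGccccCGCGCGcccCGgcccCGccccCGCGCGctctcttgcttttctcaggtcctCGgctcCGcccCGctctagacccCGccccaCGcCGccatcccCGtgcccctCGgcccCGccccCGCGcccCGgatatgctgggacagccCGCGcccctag
The TIE1 window held 1 CpG and the MGMT window 45. This pair does not stand for the directions: among named genes the higher gene COLEC12 held 49 and the lower gene LRP5 52, and the lower genes ABCC2 and RNF128 held 1 each. These counts describe the reference sequence, and no methylation was measured.

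The same comparison on the 6 arrays with taurolidine, at 250 µmol/l with or without TRAIL, used cells that the main comparison did not. There 319 genes were at least 4-fold higher and 338 at least 4-fold lower than both lines. Of the 306 and 371 genes found without taurolidine, 282 and 327 were called there in the same direction, at any size of difference. All 25 genes of each extreme group were called again in the same direction. The smaller difference was 1.19 for TAGLN, 3.03 for CNN1 and 5.58 for TIE1. Of the 163 called genes that were chosen to be named, 16 were not called on those arrays, among them KIT, ZEB2, TBX18 and LHX2.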

How the data were processed

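Total RNA of the 3 lines was hybridised to Affymetrix arrays after the labelling protocol in the labels. The deposited table holds linear array intensity made with MAS5, per the submitters' processing notes. No label or file names the MAS5 version or its scaling target. This method subtracts mismatch from perfect-match brightness, so values of dim probe sets are unstable. The trimmed mean was 1000.1 on all 6 arrays, so no further normalisation was applied.

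The platform annotation gave 41097 of 54675 probe sets 1 gene, 1801 several and 11777 none. The Entrez numbers of 41043 gave current symbols, and 62 control probe sets and those of several or no gene were left out. Tested probe sets were those above the table median, 138, on at least 2 of the 6 arrays. The tested probe set with the highest mean stood for a gene. The log2(intensity + 11.6) of the deposited values entered a linear model (limma 3.58.1, R 4.3.3) with line as the only term and moderated errors, and p-values were adjusted over 13879 genes by the Benjamini-Hochberg method. Called means an adjusted p under 0.05 against both lines in the same direction.

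Genes are named by a rule: the 25 most different in each direction, up to 6 called members of each of 28 lists, and markers that the label of the line calls for. Other genes in the text were chosen after their values were seen. The rule, the members and the lists were chosen with earlier results of these data known. Promoters came from RefSeq (GRCh38.p14), matched by Entrez number for 11178 of the tested genes.

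Simulated data had 200 changed genes of 13879, in 10 runs. Of genes with log2 differences of 1, 2, 3 and 4 from both lines, 38.4%, 71%, 85.4% and 88.2% were recovered, and 0.902% of calls were false. In the simulation no other gene differed between lines, and A-204 and VA-ES-BJ did not differ at all. In the data 46.9% of genes passed against A-204 and 50.1% against VA-ES-BJ, so these rates do not measure the calls made here. Alternatives were another constant, filter, normalisation, probe set rule, error model, set of arrays or a TRAIL term, and leaving out each array.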

Additional observations from a re-analysis of the deposited data

How the results depend on the processing

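With the table median as the added constant, 191 genes instead of 306 were at least 4-fold higher and 140 instead of 371 at least 4-fold lower than both lines, because most of these genes were dim on 1 side. Leaving out 1 array at a time gave 4278 to 6517 genes called against A-204 and 5473 to 6119 against VA-ES-BJ. It gave 1155 to 1678 genes higher and 1168 to 1527 lower than both lines, 266 to 300 at least 4-fold higher and 336 to 419 at least 4-fold lower. The lone remaining array of a line was then assumed to vary like the other lines. Equal array medians moved the share of higher genes among those called against both lines from 51.1% to 59.4%, and among those called against A-204 from 47.8% to 57.2%, and they shifted the median of all genes to 0.11 against A-204. A TRAIL term, which compares the lines within treatment as a block, gave 1693 higher and 1641 lower genes, and no filter 1452 and 1389. The fit of the 6 taurolidine arrays was chosen after seeing the data and gave 1999 and 1736. Of 163 named genes that were called, 126 kept the call under every alternative run, and 0 reversed. MAS5 signals without detection calls limit what can be said of dim genes, and 2 arrays per line limit the precision of every difference.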

Other observations

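A receptor of TRAIL and a caspase were lower in SK-LMS-1 at baseline; both were picked after their values were seen, and the other genes of the TRAIL pathway were not tallied. The receptor TNFRSF10A read 126 and 171 in SK-LMS-1, 1157 and 1286 in A-204, and 1532 and 1688 in VA-ES-BJ, with differences of -2.96 ± 0.17 against A-204 (adjusted p = 0.00035) and -3.35 ± 0.17 against VA-ES-BJ (adjusted p = 0.00026). Caspase 8 (CASP8), the initiator caspase recruited to that receptor, read 451 and 465 in SK-LMS-1, 1790.1 and 2041 in A-204, and 5782 and 5008 in VA-ES-BJ, or -2.03 ± 0.13 against A-204 (adjusted p = 0.00045) and -3.52 ± 0.13 against VA-ES-BJ (adjusted p = 0.00012). In both cases the untreated and the TRAIL array of SK-LMS-1 lay below all 4 other arrays. Among the genes at least 4-fold lower were also OAS1, OAS3 and IFIH1, which interferon is known to induce; they too were picked after their values were seen, and no list of interferon genes was counted. OAS1, which makes the activator of ribonuclease L, read 132 and 54.3 against 822 to 1096 on the 4 other arrays, OAS3 569 and 461 against 2982 to 4484 on the 4 other arrays, and the RNA sensor IFIH1 92.7 and 125 against 482 to 2151 on the 4 other arrays.

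Some of the extreme genes lie beside each other. Over the order of tested genes along the chromosomes, 41 runs of neighbours were at least 4-fold different in the same direction, 21 higher and 20 lower, and they held 90 of the 677 genes. The longest runs had 3 genes, and there were 8 of them. One such run on chromosome 14 held SFTA3, NKX2-1 and NKX2-8, with SFTA3 at 2894 and 2583 against 4.45 to 54.3 on the 4 other arrays and NKX2-8 at 469.6 and 414 against 17.1 to 120.4 on the 4 other arrays. Another on chromosome 10 held the aldo-keto reductases AKR1C1, AKR1C2 and AKR1C3, which act on steroids, all lower in SK-LMS-1. AKR1C1 read 501 and 386 in SK-LMS-1, 9964 and 10527 in A-204, and 1593 and 2104 in VA-ES-BJ, and AKR1C3 119.9 and 108 in SK-LMS-1, 620.3 and 445 in A-204, and 2412 and 2826 in VA-ES-BJ. Cross-hybridisation between these near-identical genes was not tested, so their separate levels are uncertain. The small heat shock genes CRYAB and HSPB2, on chromosome 11, were both higher, with HSPB2 at 328 and 307 against 7.82 to 18.2 on the 4 other arrays and CRYAB at 1747 and 1275 against 121 to 372 on the 4 other arrays. The share of such runs that gene order alone would give was not tested.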
